A study of Mus musculus with 24 samples.

Results

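The genes described here encode the proteins of the cytosolic ribosome. They were taken by symbol, as each row of the deposited tables whose gene name is Rpl, Rps or Rplp followed by a number and at most the letter a, x or l. This gave 81 of 24825 genes, 31 of the small subunit (Rps) and 50 of the large subunit (Rpl and Rplp). Of these, 77 reached 1 FPKM in at least 3 of the 24 libraries and could be tested among 12640 genes. FPKM is the number of fragments per kilobase of gene length per 1000000 fragments counted in the library. RNA-seq was done on immortalised cells of the stromal vascular fraction of mouse inguinal white adipose tissue, which holds the precursors of adipocytes. The cells came from Nfia flox/flox mice, in which exon 2 of Nfia, a transcription factor of brown and beige adipocytes, can be cut out by Cre. All groups carried SV40 large T antigen, a viral protein that drives cells through the cell cycle and binds p53. The 4 cell types were ctrl (empty retroviral vector), Cre (retroviral Cre) and, on top of Cre, the full protein tagged with 3xFLAG (Cre + NFIA) or a 3xFLAG form without the pro#3 segment of the C-terminal proline-rich domain (Cre + NFIA Δpro#3). Each was collected before differentiation (day 0) and after 7 days of differentiation towards thermogenic adipocytes (day 7), in triplicate. The differentiation cocktail of IBMX, indomethacin, dexamethasone, insulin, T3 and rosiglitazone was followed by insulin, T3 and rosiglitazone in each cell type. All came from immortalised cells with vectors added by infection, so a group stands for infected cultures and not for separate mice. Nothing in the labels says that triplicates were separate cultures, so p-values measure the spread between these libraries.

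A ribosome is built from ribosomal RNA and close to equal numbers of each ribosomal protein, and the genes for these proteins are therefore usually expressed at high and similar levels. Their mRNAs begin with a run of pyrimidines (C and T) known as the terminal oligopyrimidine motif, through which mTOR signalling and the protein LARP1 control their translation. MYC and growth signals raise the transcription of many of them. Ribosomal proteins that are not built into a ribosome are degraded, and free Rpl5 and Rpl11 bind Mdm2, the ubiquitin ligase of p53. Because they are abundant, several of these genes are used as reference genes in RT-qPCR, and Rplp0 was the internal control for RT-qPCR in the study of these cells. Its RT-qPCR primers are shown because the values below give how far this reference gene moved between groups. In build mm9 the forward primer matched chr5:116009843-116009860 in exon 2 of 7, across the junction of the 5′ UTR and the coding sequence, and the reverse primer chr5:116010761-116010784 in exon 3, in the coding sequence, which gives 90 bases of mRNA between their outer ends.
Rplp0 forward: gatgcccagggaagacag
Rplp0 reverse: acaatgaagcattttggataatca

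Start sites in RefSeq (build GRCm38.p6) were found for 57 of the 77 tested genes. The 40 bases around the start, 20 before it and 20 after it, are shown in the direction of transcription for genes that the results turn on, with runs of at least 5 pyrimidines in capitals. Rps2, Rpl13 and Rps12 were among the genes with the largest rises in cells given NFIA at day 0, Rplp0, Rps4x and Rpl12 were among those with the largest falls by day 7 in Cre + NFIA, Rplp2 moved against the majority, Rps25 varied least, and Rps6 is the substrate of S6 kinase. Of these windows that of Rps4x alone holds no run of at least 5 pyrimidines. Windows not shown here, among them those of Rpl23, Rpl24, Rpl9 and Rps3, also held none.
Rps2, chr17:24720043-24720082, plus strand: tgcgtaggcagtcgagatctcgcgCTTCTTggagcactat
Rpl13, chr8:123102330-123102369, plus strand: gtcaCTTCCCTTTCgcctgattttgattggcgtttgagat
Rps12, chr10:23787190-23787229, minus strand: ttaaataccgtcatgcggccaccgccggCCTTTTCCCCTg
Rplp0, chr5:115559447-115559486, plus strand: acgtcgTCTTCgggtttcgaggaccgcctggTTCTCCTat
Rps4x, chrX:102189372-102189411, minus strand: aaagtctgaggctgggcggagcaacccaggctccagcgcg
Rpl12, chr2:32961692-32961731, plus strand: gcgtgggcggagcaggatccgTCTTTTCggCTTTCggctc
Rplp2, chr7:141447631-141447670, plus strand: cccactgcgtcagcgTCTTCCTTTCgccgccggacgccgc
Rps25, chr9:44407694-44407733, plus strand: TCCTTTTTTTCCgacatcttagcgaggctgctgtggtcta
Rps6, chr4:86857348-86857387, minus strand: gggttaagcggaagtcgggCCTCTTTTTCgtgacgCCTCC

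In the same 40 bases and on the same strand, CTTTC or CTTCC stood in 29 of the 57 genes (50.9%), against 15.8% of the 27025 genes with a start window and 18.5% of the 9564 of them that were tested. A run of at least 8 pyrimidines stood in 52.6% of the ribosomal protein genes, 19.0% of the tested genes and 18.4% of all genes. The CTTTC or CTTCC and the pyrimidine runs overlap each other. CCGGAAG, the core of sites for ETS factors, was sought on either strand over the wider window of 250 bases before to 50 after the start. It was found in 40.4% of the ribosomal protein genes, 20.6% of the tested genes and 9.93% of all genes. GATGGC, part of YY1 sites, was found on either strand in 24.6% of the ribosomal protein genes, 17.4% of the tested genes and 15.9% of all genes. The full palindrome that NFI factors bind (TTGGC and GCCAA 5 bases apart) was found in 0 of the 57 genes. It stood in 4 of the 9564 tested genes and 12 of 27025 genes. With so rare a match, 0 in 57 genes cannot show whether NFI factors bind there. These are matches of letters in annotated windows and not measured sites.

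Library totals were 7732829 to 14622189 reads, and 14410 to 15822 genes had at least 1 read. Rpl39l, Rpl34 and Rps27 had at most 29 reads in a library and Rpl32l 57 to 125, so counting error weighs on these 4, while each other tested ribosomal protein gene had at least 210 reads in every library. Nfia was at 6.47 ± 0.264 FPKM (SD, n = 3, here and below) in ctrl and 6.21 ± 0.773 in the libraries labelled Cre at day 0, so the gene-level value, which sums all exons, did not check the Cre label. It was 72.4 to 102 FPKM in the groups given either NFIA construct. Summed FPKM of 10 adipocyte markers was 21956 to 25587 in ctrl at day 7, 20608 to 20805 in Cre + NFIA, 4388 to 9434 in Cre and 840.0 to 2121 in Cre + NFIA Δpro#3, against 112 to 118 in ctrl at day 0, and 9 of the 10 passed the filter, Lep (leptin) being under 1 FPKM throughout. Of 9 markers of stromal precursors 8 passed, with sums of 3883 to 4198 in ctrl at day 0 and 1048 to 1172 in Cre + NFIA at day 7. Other cell types were scarce, with 2 of 5 endothelial, 2 of 6 immune, 1 of 5 skeletal muscle and none of 4 epithelial markers past the filter, and with Pecam1, Cdh5, Ptprc, Cd3e and Epcam under 1 FPKM in each library. Replicate 2 of ctrl at day 0 and replicates 3 of Cre + NFIA Δpro#3 at both days stood apart from their groups in many ribosomal protein genes, so counts that moved without them are given with the results.

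Together the 81 genes took 2.68 to 3.97% of the reads of a library. At day 0 the share was 3.23, 2.77 and 3.03% in ctrl, 3.30, 3.40 and 3.19% in Cre, 3.78, 3.71 and 3.73% in Cre + NFIA and 3.74, 3.71 and 3.97% in Cre + NFIA Δpro#3. The 6 libraries given an NFIA construct were each above the 6 others. At day 7 it was 2.87, 3.11 and 2.80% in ctrl, 2.90, 3.03 and 2.95% in Cre, 2.68, 2.68 and 2.71% in Cre + NFIA and 3.31, 3.39 and 2.92% in Cre + NFIA Δpro#3. In bulk samples fewer cells of a type and less RNA per cell cannot be told apart. Cre + NFIA had moved from among the highest shares to the lowest, below each of the other 9 libraries of day 7, while Cre + NFIA Δpro#3 overlapped Cre. The mitochondrial ribosomal proteins (78 Mrpl and Mrps genes, encoded in the nucleus and translated in the cytosol for the ribosomes of mitochondria) went the other way, from 0.278, 0.272 and 0.274% to 0.469, 0.477 and 0.471% in Cre + NFIA and from 0.249, 0.223 and 0.24% to 0.427, 0.486 and 0.453% in ctrl. In Cre + NFIA Δpro#3 their share was 0.287, 0.278 and 0.298% at day 0 and 0.275, 0.284 and 0.263% at day 7, which overlapped.

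**Figure D1:**
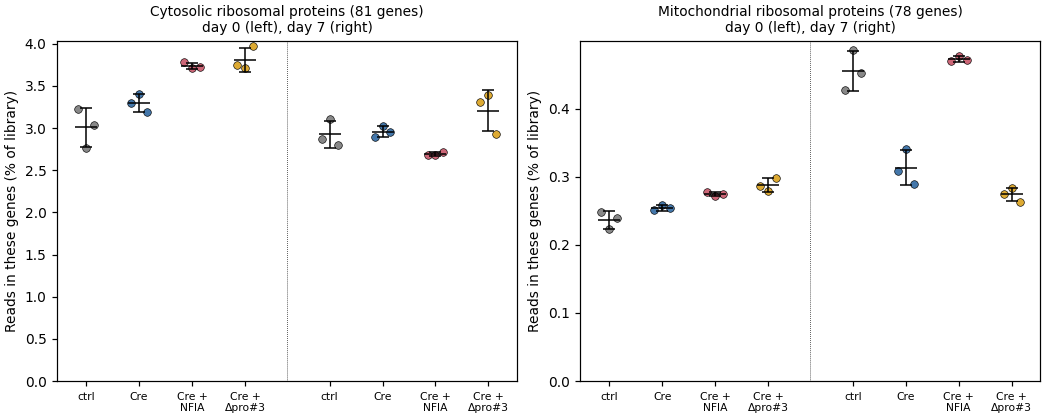
Share of each library's reads (%, y axis from 0) in the 81 cytosolic (left) and 78 mitochondrial (right) ribosomal protein genes, with 1 point per library, the group mean as a bar and ± 1 SD as whiskers (n = 3). Cre + NFIA had 3.74% in the cytosolic set at day 0 and 2.69% at day 7, with 0.275% and 0.473% in the mitochondrial set.

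The mean level over the 24 libraries was at least 100 FPKM in 70 of the 77 tested genes and at least 1000 FPKM in 7, with a median of 463 FPKM. The highest means were those of Rpl41 (1642 FPKM), which encodes a very short basic protein, Rps12 (1421) of the head of the small subunit, Rplp1 (1377) and Rplp0 (1260.3) of the stalk, and Rps18 (1236), whose protein lies at the contact between the subunits. Rps15 (1110.0) and Rpl19 (1001) followed. The lowest were Rpl39l (0.328 FPKM), Rpl34 (1.58), Rps27 (2.78), Rpl32l (12.5) and Rps4l (37.7). The distribution had a gap, since Rps15a at 45.8 FPKM and Rpl22 at 89.2 FPKM were the next lowest and Rps20 was already at 127.

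Rpl34, Rps27, Rpl30 and Rpl26 encode proteins that ribosomes are known to carry, yet they lay far below the others. Rpl26 (chr11:68715085-68720491, mm9) had 0 reads in the 24 libraries. Rpl30 (chr15:34370260-34373395) had at most 8 reads in a library and 81 in all, Rpl34 (chr3:130429749-130433316) at most 24, and Rps27 (chr3:90016593-90017573) at most 29. The authors kept reads that aligned to a single place, and processed copies of ribosomal protein mRNAs are common in the mouse genome, so the sequence that each mRNA shares with other places was measured. Of the 31-base windows along the mRNA, 87.1% in Rpl26, 69.4% in Rpl30, 56.7% in Rpl34 and 99.7% in Rps27 also stood elsewhere in the mm9 genome. That share was 71.6% at the median of the 71 genes with a mean of at least 10 FPKM and an annotated mRNA, and above 80% in 26 of them. It was 98.2% in Rps12, which was at a mean of 1421 FPKM. Over the 74 tested genes with an annotated mRNA the rank correlation between mean FPKM and this share was 0.38 (Spearman's rho, across genes that share libraries and sequence). The near-absent genes lay within the range of the others in repeated 31-base sequence, and how the unique-alignment rule acted on each gene at the length of the reads used was not tested. Values of Rpl26, Rpl30, Rpl34 and Rps27 are uncertain.

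**Figure D2:**
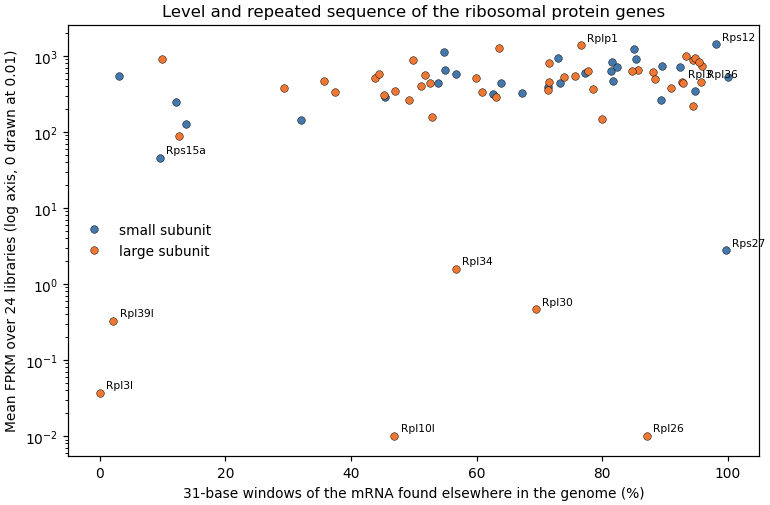
Mean FPKM over 24 libraries (y, log axis, with 0 drawn at 0.01) against the share of 31-base windows of the mRNA that also stand elsewhere in the mm9 genome (x, %), 1 point for each of 78 ribosomal protein genes. Rpl26, Rpl30, Rpl34 and Rps27 lie at 87.1%, 69.4%, 56.7% and 99.7%, within the range of the genes above 100 FPKM.

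The genes with an added l are copies or paralogs. Rpl3l, the muscle form of Rpl3, had 17 reads over the 24 libraries against a mean of 459 FPKM for Rpl3, and Rpl10l, the testis form of Rpl10, had 0 reads against 891 FPKM. Neither reached the filter. Rps27l, a close paralog of Rps27 that p53 is known to induce, was at 146 FPKM, above the 2.78 FPKM of Rps27. Rpl32l and Rps4l, at 12.5 and 37.7 FPKM, were at a small part of Rpl32 (817) and Rps4x (744), and reads may be split between such near-identical copies, so their values are uncertain.
Rpl39l, a paralog of Rpl39 known from testis, passed the filter only through ctrl at day 7. It had 12, 13 and 18 reads in ctrl at day 7, 3, 7 and 5 in ctrl at day 0, 0, 0 and 1 and 2, 1 and 0 in Cre at days 0 and 7, 1, 0 and 0 and 0, 1 and 0 in Cre + NFIA, and 1, 4 and 1 and 4, 1 and 2 in Cre + NFIA Δpro#3. Ctrl at day 7 lay above the other 21 libraries, and at day 0 the ctrl libraries overlapped those of Cre + NFIA Δpro#3. Since the group where it was high decided that it was tested, its reads are a description. Where a count of calls includes it, that call is not read as a result.

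The stalk of the large subunit, which draws elongation factors to the ribosome, is made of Rplp0 at its base and Rplp1 and Rplp2. Rplp0 (chr5:116009476-116013736, mm9) was at 1421, 1163 and 1366 FPKM in ctrl, 1410.0, 1380.2 and 1373 in Cre, 1646, 1561 and 1529.5 in Cre + NFIA and 1582, 1593 and 1572 in Cre + NFIA Δpro#3 before differentiation. After 7 days the values were 959, 1053 and 928 in ctrl, 1069, 1090.5 and 1133 in Cre, 897, 867 and 871 in Cre + NFIA and 1272, 1324 and 1187 in Cre + NFIA Δpro#3. In each cell type the 3 libraries of day 7 lay below the 3 of day 0. The log2 fold change from day 0 to day 7 was -0.42 in ctrl (SE 0.064, limma adjusted p = 5.2e-06) and -0.85 in Cre + NFIA (SE 0.064, limma adjusted p = 1.7e-10), where the mean at day 0 was 1.8 times that of day 7. It was -0.34 (limma adjusted p = 0.00016) in Cre and -0.33 (limma adjusted p = 0.0003) in Cre + NFIA Δpro#3. At day 7 Rplp0 was 1.25-fold lower in Cre + NFIA than in Cre (-0.32 ± 0.068 SE, limma adjusted p = 0.0014) and 1.44-fold higher in Cre + NFIA Δpro#3 than in Cre + NFIA (0.52 ± 0.068 SE, limma adjusted p = 2.5e-05), with no overlap of the libraries in either. Cre and ctrl at day 7 differed by 0.17 (limma adjusted p = 0.054), which missed the threshold. Under the other scalings the fall in Cre + NFIA ranged from -0.86 to -0.74 and the difference between the constructs from 0.40 to 0.53, each past the threshold.

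Rplp1 was at 1049 ± 159, 1161 ± 220.4, 1677 ± 64.3 and 1661 ± 63.5 FPKM in the 4 cell types at day 0, in the order ctrl, Cre, full-length NFIA and Δpro#3. The libraries of both NFIA constructs lay above those of Cre (0.55 ± 0.14 SE, limma adjusted p = 0.013 for full-length NFIA and 0.53 ± 0.14 SE, limma adjusted p = 0.022 for Δpro#3). From day 0 to day 7 Rplp1 rose in ctrl, to 1304 ± 111 (0.32, limma adjusted p = 0.02), and fell in Cre + NFIA, to 1193 ± 25 (-0.49, limma adjusted p = 0.00097).
Rplp2 moved otherwise. It was at 428, 334 and 428 FPKM in ctrl at day 0 and 648, 773 and 651 at day 7, a rise of 0.80 ± 0.12 SE, limma adjusted p = 2.6e-06, with no overlap. In Cre it was at 390.0, 524 and 531 and 492, 554 and 469.6, and in Cre + NFIA at 615, 567 and 559 and 631, 588 and 618, and neither change passed the test (0.08, limma adjusted p = 0.59 and 0.078, limma adjusted p = 0.56). At day 7 Rplp2 was lower in Cre than in ctrl (-0.45 ± 0.10 SE, limma adjusted p = 0.0024), higher in Cre + NFIA than in Cre (0.28, limma adjusted p = 0.03) and lower in Cre + NFIA Δpro#3 than in Cre + NFIA (-0.34, limma adjusted p = 0.011). In the last of these Rplp0, given above, and Rplp1 (0.42, limma adjusted p = 0.0018) of the same stalk were higher.

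**Figure D3:**
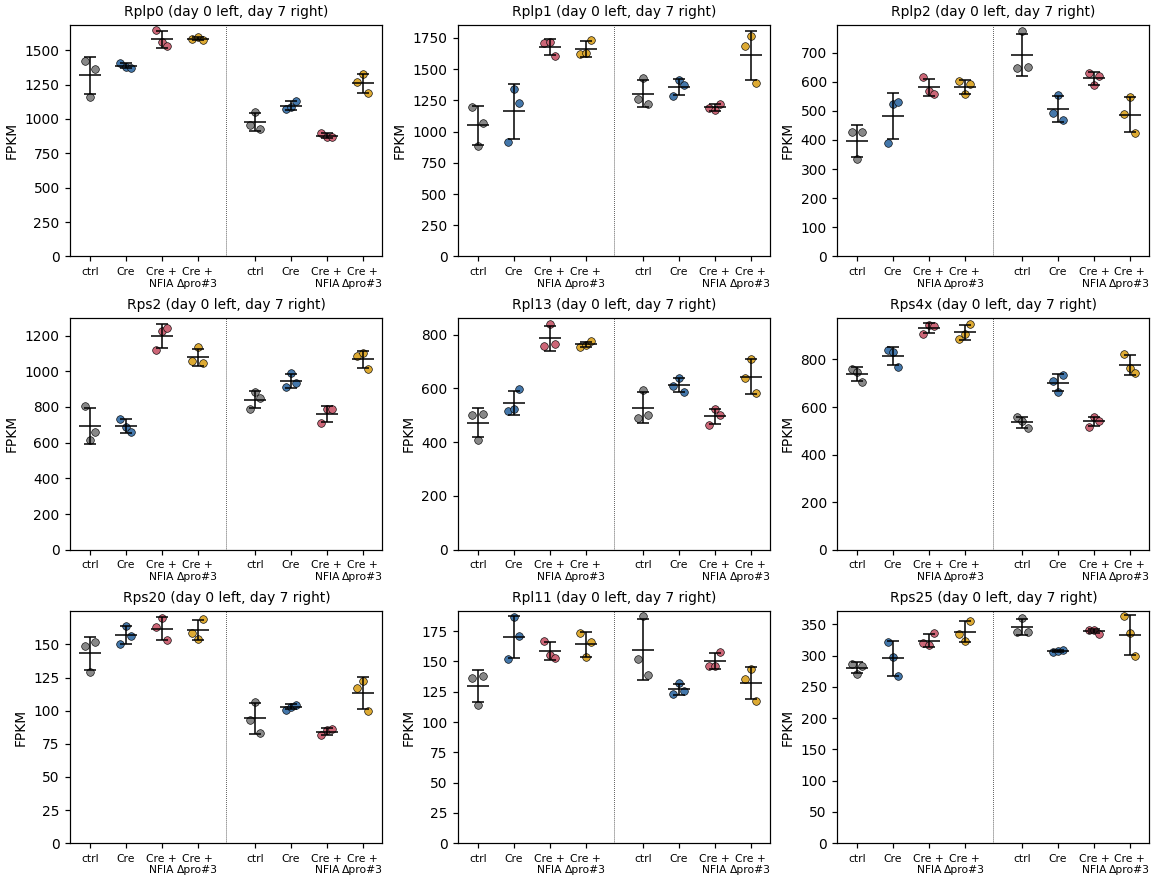
FPKM (y axis from 0) of 9 ribosomal protein genes in each library, with 4 cell types at day 0 left of the dotted line and at day 7 right of it, the mean as a bar and ± 1 SD as whiskers (n = 3). Rplp0 in Cre + NFIA fell from 1579 to 878 FPKM, Rplp2 in ctrl rose from 397 to 691, and Rps25 stayed between 267 and 364.

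The coefficient of variation over the 24 libraries was 14.3% at the median of the 77 genes and 23.5% at the median of the 12640. It was lowest in Rps25 (8.34%), a small subunit protein needed by some viral internal entry sites, Rpl7a (8.66%), Rpl24 (9.24%), Rps13 (9.28%) and Rpl3 (9.39%), which lies at the peptidyl transferase centre. Rplp0 ranked 70 of 77, at 20.2%, and 43% of the genes tested varied less than it did. It ranked 68 with median-of-ratios size factors and 62 with quantile normalization. Of the 5 least variable genes, 3 stayed among the 5 under either of those scalings. Rps25 was at 280.4 ± 8.54 FPKM in ctrl at day 0 and 345 ± 12.8 at day 7, which passed the test (0.30, limma adjusted p = 0.00034), so the least variable gene also moved. The largest spreads above 100 FPKM were in Rps20, of the head of the small subunit (24.8%), Rps2 (20.8%), at the mRNA entry, and Rplp0.

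Among the 74 genes with a mean of at least 10 FPKM, the highest group mean was 1.49 times the lowest at the median, from 1.23 in Rpl24 to 1.92 in Rps20. The highest of the 8 group means was in Cre + NFIA Δpro#3 at day 0 for 37 genes and in Cre + NFIA at day 0 for 25. The lowest was in Cre + NFIA at day 7 for 44 genes and in ctrl at day 0 for 19. The first component of log2 FPKM, centred by gene, held 66.3% of the variance and had the same sign in 72 of the 74 genes. The genes share libraries and library totals, so this describes the table and not independent genes. The pairwise Pearson correlation over the 24 libraries was 0.69 at the median. Among the genes with the lowest median correlation with the others were Rps4l (-0.25), Rpl9 (0.059), Rplp2 (0.13), Rps25 (0.22) and Rps27l (0.27). In the heat map Rps4l, Rpl9 and Rplp2 turn red in ctrl at day 7.

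**Figure D4:**
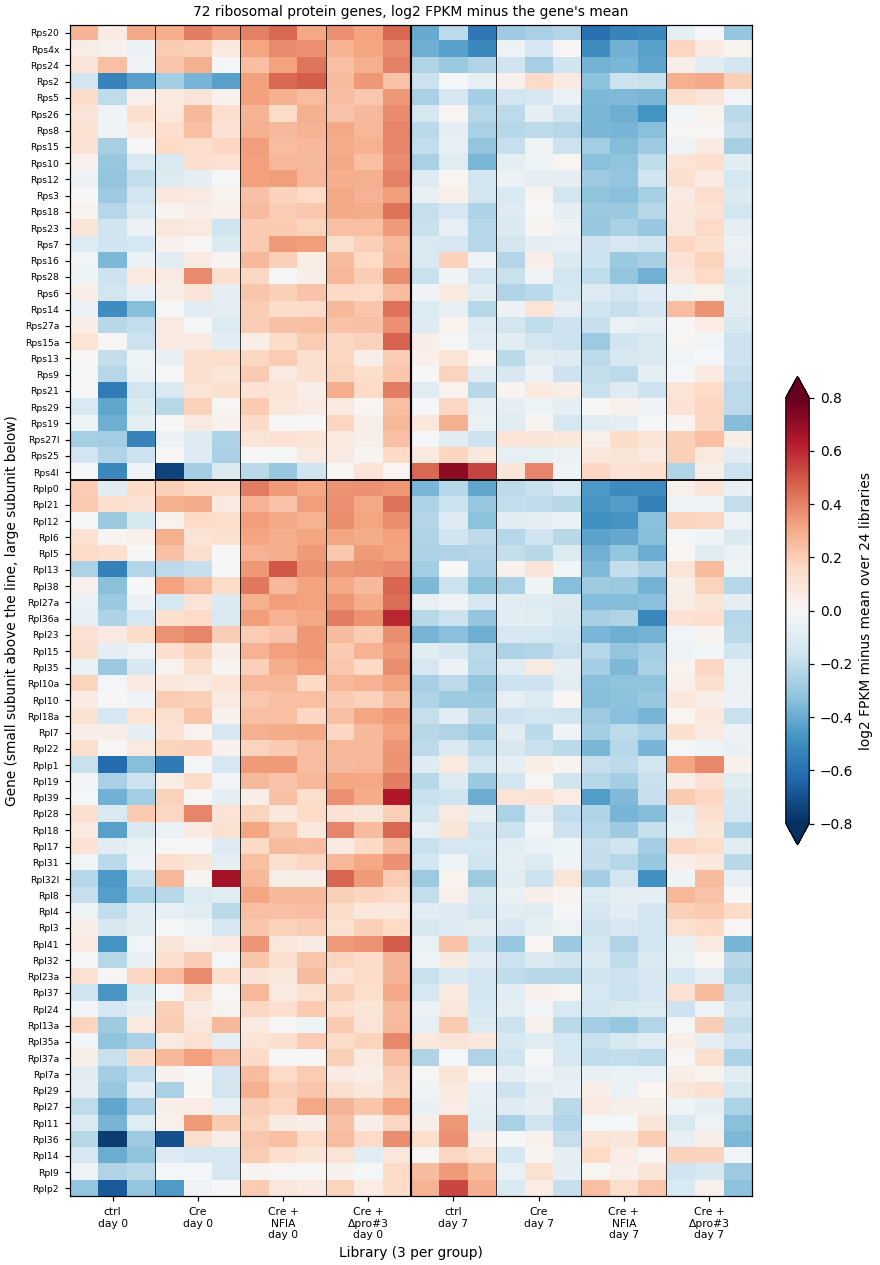
log2 FPKM minus the gene's own mean over 24 libraries (colour, −0.8 to 0.8) for 72 of the 74 ribosomal protein genes (rows, small subunit above the horizontal line, ordered by their change in Cre + NFIA) in the 24 libraries (columns, 3 per group, day 0 left of the thick line). The NFIA and Δpro#3 groups of day 0 are red in most rows, Cre + NFIA at day 7 is blue in most, and Rps4l, Rpl9 and Rplp2 are red in ctrl at day 7.

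Whether ribosomal protein genes change over differentiation was asked within each cell type. In Cre + NFIA they fell together, with 62 of 77 lower at day 7 (80.5% against 38.3% of all genes) and 1 higher, Rps4l (background 31.8%). The median change was -0.42 (log2), against -0.048 over all genes, and it was -0.42 in the 31 small subunit genes and -0.43 in the 46 large subunit genes. Rps20 fell most. Its 3 libraries gave 163, 169.7 and 153 FPKM before and 81.5, 85.1 and 86.1 after differentiation, 1.92-fold lower with no overlap (-0.93 ± 0.082 SE, limma adjusted p = 1.8e-09). Rps4x, the X-linked form of a small subunit protein, went from 909, 946 and 940.1 to 518, 559 and 541 FPKM (-0.79 ± 0.054 SE, limma adjusted p = 3.2e-11). Of the 77 genes 19 fell at least 1.5-fold, against 2431 of the 12640 genes tested (19.2%). At that fold the share was much nearer the background than without a fold threshold. Between 56 (median-of-ratios) and 69 (quantile) genes fell under the other scalings, for which the share of all genes is not given.

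In ctrl, whose adipocyte marker sums at day 7 were slightly above those of Cre + NFIA, the genes split. There 19 rose (background 32.9%) and 18 fell (background 38.1%), and the median change was 0.026 against -0.053 over all genes. Rps20 fell from 143 ± 12.3 to 94.1 ± 11.9 FPKM (-0.60 ± 0.082 SE, limma adjusted p = 1.2e-06), with Rpl23 (-0.48, limma adjusted p = 6.3e-07) of the large subunit and Rps4x (-0.46, limma adjusted p = 1.4e-07). Rplp2 rose, as given above, and Rps4l went from 36.6, 25.8 and 36.1 to 50.6, 60.4 and 53.5 FPKM (0.74 ± 0.14 SE, limma adjusted p = 6.5e-05). Rpl34 was fitted at 0.99 (limma adjusted p = 0.011), from 3, 4 and 7 reads to 19, 12 and 22. Rpl9 (0.44, limma adjusted p = 3.6e-06), also among the low correlations above, rose too. The split depended on the scaling, with 24 higher and 14 lower under median-of-ratios and 9 higher and 42 lower under quantile normalization, and without replicate 2 of ctrl at day 0 it was 14 and 25. The median turned to -0.037 without that library and to -0.019 without replicate 2 of day 7, and without replicate 3 of day 7 it was 0.078.

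In Cre, 32 fell (background 21.6%) and 3 rose (background 30.0%), with a median of -0.15 against 0.055. Rps20 (-0.61, limma adjusted p = 2.9e-06), Rpl23a (-0.47, limma adjusted p = 3.3e-06) and Rpl23 (-0.46, limma adjusted p = 2.3e-06) fell most, and Rps4l (0.51, limma adjusted p = 0.0038), Rps2 (0.44, limma adjusted p = 8.6e-05) and Rps27l (0.22, limma adjusted p = 0.012) were the 3 that rose. Under quantile normalization it was 27 and 9. In Cre + NFIA Δpro#3, where adipocyte markers rose least, 48 fell (background 17.0%), with a median of -0.26 against 0.047, and none rose (background 24.5%), with limma at an unadjusted p under 0.05 and with voom giving 0 as well. Rpl41 went from 2049.5, 2076 and 2263 to 1556, 1707 and 1252 FPKM (-0.51 ± 0.13 SE, limma adjusted p = 0.004), Rps20 changed by -0.51 (limma adjusted p = 3.8e-05) and Rpl21 of the large subunit by -0.46 (limma adjusted p = 2.4e-06). Leaving out replicate 3 of day 7 gave 34 falls, and quantile normalization gave 24 falls and 4 rises. In each of the 4 cell types, whose comparisons share no library, 17 of the 77 genes fell (10.3% of all genes did), among them Rps20, Rplp0, Rps4x, Rpl21, Rpl23, Rpl23a and Rpl5.

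At day 0, before the cocktail, the groups given an NFIA construct were compared with Cre. They carried a further vector, and neither the labels nor the paper state an empty vector in its place for Cre. Effects of NFIA and of the added infection therefore cannot be told apart at either day. In Cre + NFIA 21 of 77 genes were higher than in Cre (27.3% against 14.7% of all genes), and the median difference was 0.14 against 0.019 over all genes. In Cre + NFIA Δpro#3 24 were higher than in Cre (31.2% against 9.26%), with a median of 0.19 against 0.01. No gene passed as lower in either (backgrounds 12.9% and 9.02%), with 1 and 0 at an unadjusted p under 0.05 in limma and 1 and 0 with voom. Both comparisons share the Cre libraries. Rps2, Rplp1 and Rpl13 had the largest differences that passed in each. Rps2 was at 735, 687 and 659.8 FPKM in Cre, 1118, 1227 and 1244 in Cre + NFIA and 1059.7, 1134 and 1044 in Cre + NFIA Δpro#3. The 6 libraries with NFIA lay above the 3 of Cre, by 0.78 ± 0.092 SE, limma adjusted p = 0.00012 and 0.64 ± 0.092 SE, limma adjusted p = 0.0011. Rpl13, of the large subunit, was at 515, 524 and 596 FPKM in Cre, 755, 839.5 and 764 in Cre + NFIA and 755, 763 and 774 in Cre + NFIA Δpro#3 (0.53, limma adjusted p = 0.001 and 0.49, limma adjusted p = 0.0031). Rplp1 is given above. Of 12 genes of S phase and mitosis 9 were higher with full-length NFIA and 7 with Δpro#3, and their part in these differences was not tested. Rps2 alone of the 77 passed with at least 1.5-fold in each comparison (backgrounds 3.77% and 1.55%). Fewer genes passed without some of the libraries. With full-length NFIA 12 passed without replicate 3 of Cre, 13 without replicate 1 and 13 without replicate 3 of Cre + NFIA. With Δpro#3 12 passed without replicate 3 of Cre, and 13, 14 and 8 without replicates 1, 2 and 3 of Cre + NFIA Δpro#3, while quantile normalization gave 13 higher and 3 lower.

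Between Cre and ctrl at day 0, 3 genes passed as higher (background 1.63%) and 1 as lower (background 1.7%). The higher genes included Rpl11 (0.39, limma adjusted p = 0.043) and Rpl27 (0.30, limma adjusted p = 0.029). The lower one was Rpl39l, which was tested only through ctrl at day 7, so this count of 1 is not read as a result. With a pseudocount of 0.1 the call was lost. The median difference was 0.15 against 0.0059 over all genes, or 0.086 without replicate 2 of ctrl. Without replicate 2 of ctrl, the library with the lowest share of day 0, 0 genes passed as higher in limma, and without replicate 3 of ctrl or any 1 of the Cre libraries 1 did.

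At day 7 the 2 constructs were compared. Their summed adipocyte markers were 20608 to 20805 FPKM in Cre + NFIA and 840.0 to 2121 in Cre + NFIA Δpro#3. The segment and the degree of differentiation therefore cannot be told apart. In Cre + NFIA Δpro#3 47 of 77 genes were higher than in Cre + NFIA (61% against 40.4% of all genes) and 4 were lower (5.19% against 28.9%), and the median difference was 0.27 against 0.10. Rpl12, at the base of the stalk, was at 623, 628 and 691 FPKM in Cre + NFIA and 985, 977 and 845 in Cre + NFIA Δpro#3 (0.53 ± 0.08 SE, limma adjusted p = 8.4e-05). Rps4x was at 518, 559 and 541 and 822, 764 and 743 (0.52 ± 0.064 SE, limma adjusted p = 1.4e-05), and Rplp0 rose as given above. None of these groups overlapped. The 4 lower genes were Rplp2, Rps4l (-0.26, limma adjusted p = 0.045), Rpl9 (-0.24, limma adjusted p = 0.0085) and Rpl27 (-0.17, limma adjusted p = 0.041). Median-of-ratios scaling gave 24 higher and 6 lower, and quantile normalization 63 and 2.

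Against Cre at day 7, Cre + NFIA had 25 genes lower (32.5% against 35.9% of all genes) and 3 higher (background 27.0%), with a median of -0.15 against -0.057. The share of lower genes was near the background. Rps27 (-0.63, limma adjusted p = 0.00055, at 11 to 25 reads a library), Rpl39 (-0.42, limma adjusted p = 0.0029) of the exit tunnel and Rps4x (-0.38, limma adjusted p = 0.00026) were lowest, and the higher genes included Rplp2 and Rpl27 (0.19, limma adjusted p = 0.031). With median-of-ratios 8 were lower and 8 higher, and with quantile normalization 56 and 0. The 3 higher calls were lost without replicate 1 or 3 of either group. In Cre + NFIA Δpro#3 3 genes were higher than in Cre (background 7.7%). These were Rpl4 (0.25 ± 0.049 SE, limma adjusted p = 0.0045), which was at 435, 431 and 455 FPKM in Cre and 527, 532 and 513 in Cre + NFIA Δpro#3, Rpl10a (0.18, limma adjusted p = 0.043) and Rpl3 (0.18, limma adjusted p = 0.036), 3 proteins of the large subunit. None passed as lower (background 10.0%), with 2 at an unadjusted p under 0.05 in limma and 1 with voom. The median was 0.11 against 0.018, from 0.068 without replicate 2 of Cre + NFIA Δpro#3 to 0.17 without its replicate 3. Without replicate 3 of Cre + NFIA Δpro#3, 19 genes passed as higher, without replicate 3 of Cre 5, and without any 1 of the other 4 libraries 1.

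Cre and ctrl at day 7 also differed in summed adipocyte markers (4388 to 9434 and 21956 to 25587 FPKM). Cre and the degree of differentiation therefore cannot be told apart. Here 7 genes were higher in Cre (background 36.1%) and 10 lower (background 22.7%). The median was 0.0069 against 0.091, and it turned to -0.013 without replicate 3 of ctrl. One of the 10 lower genes was Rpl39l, which was tested only through ctrl at day 7. That is the group it is compared with here, so its call is not read as a result. The others included Rplp2, Rps4l (-0.41, limma adjusted p = 0.0049), Rpl11 (-0.32, limma adjusted p = 0.018) and Rpl9 (-0.29, limma adjusted p = 0.0042), and Rps4x (0.39, limma adjusted p = 0.00026), Rpl39 (0.34, limma adjusted p = 0.012) and Rps27 (0.57, limma adjusted p = 0.0013) were higher. The split turned with the scaling, since median-of-ratios gave 2 higher and 22 lower and quantile normalization 45 and 5. The share of all genes under those scalings is not given, so the backgrounds above do not apply to these counts. Without replicate 2 of ctrl it was 11 and 6, without replicate 3 of ctrl 4 were higher, and without replicate 1 of Cre 6 were lower. Rplp2, Rps4l and Rps4x kept their direction and passed in each of the scalings.

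Whether these differences between cell types changed with differentiation was tested as the interaction of cell type and day over the 24 libraries. The difference between Cre + NFIA and Cre was lower at day 7 than at day 0 in 40 of 77 genes (background 30.1%) and higher in 0 (background 18.8%), with 1 higher at an unadjusted p under 0.05 in limma and 1 with voom. Rps2, for example, was above Cre at day 0, as given above, and at day 7 below it, at 912, 989 and 933 FPKM in Cre and 709.6, 789 and 788 in Cre + NFIA, with no overlap. The term for Δpro#3 was lower in 6 genes (background 10.4%) and higher in 0 (background 7.79%), with 0 higher at an unadjusted p under 0.05 in limma and 0 with voom. For Cre against ctrl 18 genes had a lower term (background 19.5%) and 1, Rps4x, a higher one (background 29.7%), which turned to 5 and 23 with quantile normalization.

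Other genes of protein synthesis were counted beside the ribosomal proteins. Of 16 mRNAs of translation factors and others known to begin with a pyrimidine run, 11 fell and 1 rose from day 0 to day 7 in Cre + NFIA (backgrounds 38.3% and 31.8%, median -0.25). Pabpc1, the poly(A)-binding protein, changed by -0.75 (limma adjusted p = 9.2e-13) and Eef2, the translocase of elongation, by -0.60 (limma adjusted p = 9.8e-10). In Cre + NFIA Δpro#3 against Cre + NFIA at day 7 11 of the 16 were higher and 1 lower (backgrounds 40.4% and 28.9%), with Eef2 at 0.55 (limma adjusted p = 2.2e-06), and in Cre + NFIA against Cre at day 0 8 were higher (background 14.7%). In Cre 4 rose and 2 fell over differentiation (backgrounds 30.0% and 21.6%). In ctrl 3 rose and 5 fell (backgrounds 32.9% and 38.1%). Of the same 16, 5 rose and 1 fell in Cre + NFIA Δpro#3 (backgrounds 24.5% and 17.0%, median -0.02). There 48 of 77 ribosomal protein genes fell and 0 rose, so the 2 lists did not move alike in that cell type.
Of 27 ribosome biogenesis genes, 20 rose in ctrl from day 0 to day 7 (background 32.9%), with a median of 0.35. Among them were Nhp2 (1.65) and Nop10 (1.00) of H/ACA particles and Ncl (0.31), nucleolin. In Cre + NFIA 7 rose and 8 fell (backgrounds 31.8% and 38.3%, median -0.029). Of the 10 tested genes that regulate growth and p53, 3 rose and 4 fell in Cre + NFIA, near the same backgrounds. Myc fell there, from 33.7 ± 4.03 to 19.4 ± 0.101 FPKM (-0.76, limma adjusted p = 1.3e-07), and at day 7 it was 0.71 higher (log2) in Cre + NFIA Δpro#3 than there. Eif4ebp1, a translation inhibitor under mTOR, rose by 2.39 in ctrl and 1.41 in Cre + NFIA. Of the 12 genes of S phase and mitosis 8 fell and 2 rose in Cre + NFIA by day 7, against those backgrounds. The translation factors and the genes of S phase and mitosis had more falls than rises in Cre + NFIA, as the ribosomal protein genes did, and their part in the result was not tested.

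The mitochondrial ribosomal protein genes, each of which passed the filter, give a measure for the other ribosome of the cell. From day 0 to day 7, 75 of 78 rose in ctrl and 74 in Cre + NFIA, with medians of 0.83 and 0.72, where 62 of 77 cytosolic genes fell in Cre + NFIA. The backgrounds of rises were 32.9% and 31.8%. In Cre 48 rose (background 30.0%) and 2 fell (background 21.6%), and in Cre + NFIA Δpro#3 3 rose (background 24.5%) and 11 fell, near the background of 17.0%. At day 7, 77 of 78 were lower in Cre + NFIA Δpro#3 than in Cre + NFIA (median -0.71, background 28.9%), while 47 of 77 cytosolic genes were higher. At day 0 the median difference between Cre + NFIA and Cre was 0.12 in the mitochondrial and 0.14 in the cytosolic genes. Each of the 9 tested adipocyte markers rose by day 7 in each of the 4 cell types, Cre + NFIA Δpro#3 included, and their part in these changes was not tested. A difference between the 2 sets was not tested.

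**Figure D5:**
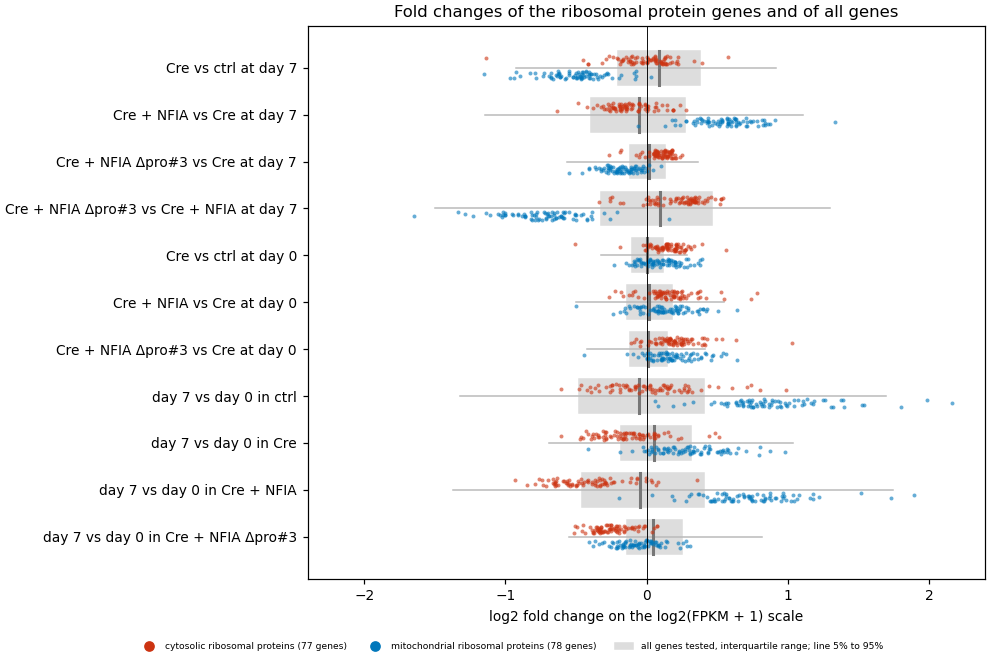
log2 fold change on the log2(FPKM + 1) scale (x) of 77 cytosolic (red) and 78 mitochondrial (blue) ribosomal protein genes in 11 comparisons (rows), 1 point per gene, over the interquartile range (box), the 5% to 95% range (line) and the median (dark bar) of all 12640 genes. In Cre + NFIA from day 0 to day 7 the red points centre on -0.42 and the blue on 0.72.

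Some ribosomal proteins have known tasks outside the ribosome. Rpl5 and Rpl11 bind Mdm2 together. In Cre both fell from day 0 to day 7, with log2 fold changes of -0.30 (limma adjusted p = 0.00016) for Rpl5 and -0.41 (limma adjusted p = 0.0015) for Rpl11. Rpl5 was at 323 ± 7.74 FPKM in Cre + NFIA at day 0 and 204 ± 6.52 at day 7 (-0.66 ± 0.056 SE, limma adjusted p = 9.4e-10), where Rpl11 was at 159 ± 7.39 and 150.1 ± 6.7 (-0.078, limma adjusted p = 0.5). In ctrl Rpl5 fell (-0.34, limma adjusted p = 1.8e-05) and Rpl11 rose (0.29, limma adjusted p = 0.012), from 136, 114 and 138 to 152, 188 and 139 FPKM, which did not overlap. Rps6, the substrate of S6 kinase, fell in Cre + NFIA (-0.33, limma adjusted p = 2.5e-05) while in ctrl the difference did not pass (0.04, limma adjusted p = 0.54). Rps19, altered in Diamond-Blackfan anaemia, stayed at group means of 392 to 491 FPKM and passed in ctrl alone over differentiation (0.27, limma adjusted p = 0.03). Rpl13a, a repressor of translation after interferon, fell in Cre (-0.30, limma adjusted p = 0.026) and Cre + NFIA (-0.29, limma adjusted p = 0.023).
Rps27a, made as a fusion with ubiquitin, fell in Cre + NFIA (-0.33, limma adjusted p = 0.00026) and Cre + NFIA Δpro#3 (-0.30, limma adjusted p = 0.0015). Ribosomal proteins outside the symbol rule included Rpsa and Fau of the small subunit, Rps3a1, Rack1, which sits on the small subunit as a signalling scaffold, and the paralogs Rpl22l1, Rpl7l1 and Rpl36al. In Cre + NFIA from day 0 to day 7 Rack1 (-0.68), Rps3a1 (-0.59), Rpsa (-0.36) and Fau (-0.29) fell, and the 3 paralogs rose, by 0.31 for Rpl36al, 0.29 for Rpl22l1 and 0.27 for Rpl7l1. Values without a unit are log2 fold changes.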

How the data were processed

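RNA-seq (TruSeq Stranded mRNA) was done on 24 libraries, 3 for each of 4 cell types at 2 days. Per the paper's methods and the labels, the authors aligned reads to mm9 with STAR 2.5.3a, kept unique alignments, counted reads on the matching strand per gene and deposited FPKM, that is, counts divided by gene length and library total. Reads recovered from FPKM and gene length were whole (within 0.05) throughout, and library totals are those reads.

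Here log2(FPKM + 1) was tested with limma 3.58.1 (R 4.3.3), with a mean-variance trend and two-sided moderated tests, on the 12640 genes that reached 1 FPKM in 3 or more libraries. Comparisons within a day used its 12 libraries, and comparisons between days and interactions all 24. Calls are p-values under 0.05 after Benjamini-Hochberg adjustment over all genes tested. The fit was also run on simulated data with 3-fold changes, larger than any change of a ribosomal protein gene in the main fit. It does not show how smaller changes are recovered. Fold changes of low genes are understated by the pseudocount of 1.

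Named genes were the stalk genes, the 5 highest, lowest and least variable, up to 3 called genes per direction and comparison (groups not overlapping), paralogs ending in l, genes below the filter, ribosomal proteins outside the symbol rule and 6 with known other roles. Rpl32l, Rps3a1 and genes named to complete a count of 5 or fewer were added after values were seen. Lists of translation factors, biogenesis genes, regulators, S phase and mitosis genes, mitochondrial ribosomal proteins and cell type markers were only counted. Some genes that this rule names are not reported here. The genes and lists were chosen with earlier results of these data known. Alternatives were a pseudocount of 0.1, no filter, median-of-ratios size factors, quantile normalization, totals without these genes, the replicate number as a block, voom on recovered reads, and each library left out. Backgrounds are those of the main fit, and the share of all genes called under each alternative is not given.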

Additional observations from a re-analysis of the deposited data

Results flagged for a closer look

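The results here stood out because a difference between cell types differed between day 0 and day 7 in a test of that difference itself (interaction terms of limma over the 24 libraries, in log2 units). For Cre + NFIA against Cre, 40 of 77 ribosomal protein genes had a lower difference at day 7 than at day 0 and 0 a higher one (backgrounds 30.1% and 18.8%), with 1 higher at an unadjusted p under 0.05 and 1 with voom, and the median term was -0.26 against -0.089 over all genes. Rps2, at the mRNA entry of the small subunit, had a term of -1.09 (limma adjusted p = 1.1e-07) and Rpl13 of the large subunit one of -0.83 (limma adjusted p = 1.4e-05). Rps2 was at 694 FPKM in Cre and 1196 in Cre + NFIA at day 0, and at 945 and 762 at day 7, so its order turned round. The term of Rpl34 was -1.22 (limma adjusted p = 0.034) at 1 to 24 reads a library.

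For Cre + NFIA Δpro#3 against Cre, 6 genes had a lower difference at day 7 and 0 a higher one (backgrounds 10.4% and 7.79%), with 0 higher at an unadjusted p under 0.05 and 0 with voom. The share of lower genes was below the background, and leaving out 1 library gave 1 to 6. Rps4l led with -0.67 (limma adjusted p = 0.02), then Rps2 with -0.46 (limma adjusted p = 0.0068) and Rpl13 with -0.42 (limma adjusted p = 0.024). Both sets of terms share the Cre libraries. For Cre against ctrl, 18 had a lower difference at day 7 and 1 a higher one (backgrounds 19.5% and 29.7%), near the background for lower genes, and quantile normalization turned the split to 5 and 23. The lower genes included Rplp2 at -0.72 (limma adjusted p = 0.001) and Rpl11 at -0.71 (limma adjusted p = 0.00031), and the higher one was Rps4x at 0.25 (limma adjusted p = 0.0097). At day 0 Rpl11 had 136, 114 and 138 FPKM in the ctrl libraries against 152, 187 and 171 in those of Cre, and at day 7 152, 188 and 139 against 123, 132 and 125, so Cre lay above ctrl at day 0 and below it at day 7 with no overlap at either day.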

How the results depend on the processing

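Alternatives changed 1 setting at a time, and of the values of single named genes 367 kept direction and side of the threshold, 32 lost the call and 1 reversed, Rpl27 in Cre + NFIA vs Cre at day 7, which was -0.068 with quantile normalization. With 1 library left out 332 kept it and 64 lost the call. The medians of the ribosomal protein genes lay within 0.5 of 0, so a scaling that shifts all genes shifts the counts, and the cause of each move was not tested. The counts below stand without the share of all genes called under the same alternative, so they do not show whether these genes moved more than others. With median-of-ratios size factors counts moved to 2 higher, 22 lower in Cre vs ctrl at day 7, 8 higher, 8 lower in Cre + NFIA vs Cre at day 7 and 1 higher in Cre + NFIA Δpro#3 vs Cre at day 7. Further counts were 24 higher in Cre + NFIA Δpro#3 vs Cre + NFIA at day 7, 1 higher, 0 lower in Cre vs ctrl at day 0 and 0 higher, 32 lower in day 7 minus day 0 of Cre vs ctrl. Others were 2 higher, 25 lower in day 7 minus day 0 of Cre + NFIA vs Cre. With quantile normalization counts moved to 45 higher, 5 lower in Cre vs ctrl at day 7, 0 higher, 56 lower in Cre + NFIA vs Cre at day 7 and 12 higher in Cre + NFIA Δpro#3 vs Cre at day 7. Others were 2 lower in Cre + NFIA Δpro#3 vs Cre + NFIA at day 7, 0 lower in Cre vs ctrl at day 0 and 2 lower in Cre + NFIA vs Cre at day 0. In addition there were 13 higher, 3 lower in Cre + NFIA Δpro#3 vs Cre at day 0, 9 higher, 42 lower in day 7 vs day 0 in ctrl and 9 higher in day 7 vs day 0 in Cre. It also gave 2 higher in day 7 vs day 0 in Cre + NFIA, 4 higher, 24 lower in day 7 vs day 0 in Cre + NFIA Δpro#3 and 23 higher, 5 lower in day 7 minus day 0 of Cre vs ctrl. There were also 1 higher in day 7 minus day 0 of Cre + NFIA vs Cre and 4 higher in day 7 minus day 0 of Cre + NFIA Δpro#3 vs Cre. With limma voom on the recovered reads counts moved to 6 higher, 1 lower in Cre + NFIA Δpro#3 vs Cre at day 7, 6 higher, 0 lower in Cre vs ctrl at day 0 and 1 lower in Cre + NFIA vs Cre at day 0. In addition there were 1 higher in day 7 minus day 0 of Cre + NFIA vs Cre. Without a filter on low values counts moved to 0 higher in Cre + NFIA vs Cre at day 7, 2 lower in Cre + NFIA Δpro#3 vs Cre + NFIA at day 7 and 0 higher, 0 lower in Cre vs ctrl at day 0. It also gave 12 higher in Cre + NFIA vs Cre at day 0, 10 higher in Cre + NFIA Δpro#3 vs Cre at day 0 and 0 higher in day 7 vs day 0 in Cre + NFIA. There were also 1 lower in day 7 minus day 0 of Cre + NFIA Δpro#3 vs Cre. With a pseudocount of 0.1 counts moved to 0 lower in Cre vs ctrl at day 0. With library totals taken without the ribosomal protein genes counts moved to 2 lower in Cre + NFIA Δpro#3 vs Cre + NFIA at day 7. With the replicate block counts moved to 1 lower in Cre + NFIA Δpro#3 vs Cre at day 7 and 0 lower in Cre vs ctrl at day 0. Leaving out 1 library at a time gave 4 to 11 higher and 6 to 10 lower in Cre vs ctrl at day 7, 0 to 3 higher in Cre + NFIA vs Cre at day 7, 1 to 19 higher and 0 to 1 lower in Cre + NFIA Δpro#3 vs Cre at day 7 and 2 to 5 lower in Cre + NFIA Δpro#3 vs Cre + NFIA at day 7. It gave 0 to 4 higher and 0 to 1 lower in Cre vs ctrl at day 0, 12 to 22 higher and 0 to 1 lower in Cre + NFIA vs Cre at day 0, 8 to 25 higher in Cre + NFIA Δpro#3 vs Cre at day 0 and 2 to 5 higher in day 7 vs day 0 in Cre. It gave 0 to 1 higher in day 7 vs day 0 in Cre + NFIA, 0 to 1 higher in day 7 minus day 0 of Cre + NFIA vs Cre and 1 to 6 lower in day 7 minus day 0 of Cre + NFIA Δpro#3 vs Cre. Same-numbered replicates correlated from -0.27 to 0.20 in their deviations from the group means, at most 3 of 6 libraries in a comparison correlated best with their own number, and the numbers are not said to mark a shared batch, so they were not taken as pairs. Counts not named for the replicate block stayed within 1.5 times. Depth limits Rpl39l, Rpl34, Rps27 and Rpl30, whose counts were under 30 reads a library.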
